A study of Mus musculus with 30 samples.

Results

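Mature myeloid cells of the blood were compared with the stem-enriched cells of the bone marrow from which blood is made. The comparison used 5 of the 30 libraries of the series, chosen by their titles: 2 libraries of Gr1+ Cd11b+ cells from blood and 3 libraries of LKS-SLAM cells from bone marrow. Both kinds of cell came from wild-type mice, were purified by flow cytometry with a purity mask and were used fresh, without culture. LKS-SLAM stands for lineage-negative, Kit+ Sca1+ cells gated by SLAM family receptors, a fraction in which haematopoietic stem cells are concentrated. LKS-SLAM replicates 1 and 2 were labelled as haematopoietic stem cells and replicate 3 as long-term haematopoietic stem cells. The ages and sexes of the mice, and whether animals were pooled, were not given in the labels, so p-values measure the spread between libraries, which may be technical. Further wild-type blood libraries were set beside these: 3 of B220+ B cells, 2 of CD4+ and 3 of CD8+ T cells. A separate set of 2 myeloid and 3 LKS-SLAM libraries, titled rEC and annotated as derived, was read as coming from mice whose blood descended from converted endothelium. Among those 3 LKS-SLAM libraries, 1 was titled with a clone name and 1 as secondary, so they were not replicates of a single preparation.

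Haematopoietic stem cells are long-lived marrow cells that depend on the cytokine receptor KIT and on transcription factors such as GATA2, MECOM and HLF. Neutrophils, the most numerous blood myeloid cells, arise from them through dividing precursors that fill successive kinds of granule: primary granules in promyelocytes, secondary granules in myelocytes and tertiary granules in the last stages before release. The Gr1 antibody binds Ly6G on neutrophils and Ly6C, which inflammatory monocytes also carry, so a Gr1+ Cd11b+ gate in blood can hold both cell types.

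The values were FPKM, fragments scaled by transcript length and library size, with no counts, so the depth in reads is unknown. Summed FPKM were 510115 and 521544 in the myeloid libraries and 573532 to 599899 in the LKS-SLAM libraries. Myeloid libraries held 10418 and 10384 genes at 1 FPKM or more, and LKS-SLAM libraries 12168 to 12550. S100a8 and S100a9, which encode the subunits of calprotectin, made up 5.34% and 5.92% of summed FPKM in the myeloid libraries and 0.147% to 0.201% in the LKS-SLAM libraries. The myeloid pair correlated at r = 0.9921 across genes on the log2 scale, and LKS-SLAM replicates 1 and 2 at 0.9858. LKS-SLAM replicate 3 stood apart, at 0.9479 and 0.95 with replicates 1 and 2. Its depth relative to replicate 1 was put at 0.607, an estimate from the most common ratio of FPKM values under 0.5, not from reads. The most abundant gene of replicate 3 was Rn45s, of the ribosomal RNA precursor, and those of replicates 1 and 2 were Eef1a1 and Rplp1. Between the groups r was 0.6808 to 0.7158.

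LKS-SLAM replicate 3 also differed from replicates 1 and 2 in transcripts of other cells. Y-linked Eif2s3y was at 43 and 56.8 FPKM in LKS-SLAM replicates 1 and 2 and listed at 0 in replicate 3 and in both myeloid libraries. Xist, made from the inactive X chromosome, was at 0.112, 0.178 and 118 FPKM in LKS-SLAM replicates 1, 2 and 3 and at 24.9 and 22.6 FPKM in the myeloid libraries. LKS-SLAM replicate 3 thus had the sex-linked pattern of the myeloid libraries. Against that replicate alone Eif2s3y did not differ in level, being listed at 0 in all 3 libraries, and Xist was lower in myeloid cells (−2.27, adjusted p = 0.00106). The 10 eosinophil markers with a value summed to 2733 and 5042 FPKM in LKS-SLAM replicates 1 and 2, 38.1 in replicate 3, and 134 and 141 in the myeloid libraries. Their defining genes Epx and Prg3 were listed at 0 in replicate 3. The 11 basophil and mast cell markers summed to 711 and 536 FPKM in LKS-SLAM replicates 1 and 2 against 28.6 in replicate 3. Erythroid markers went the other way, at 766, 1493 and 3363 FPKM in replicates 1, 2 and 3, and were at 63.7 and 1023 in myeloid replicates 1 and 2. The counts below are therefore also given with replicate 3 as the only LKS-SLAM library where they moved by over 1.5 times.

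**Figure D1:**
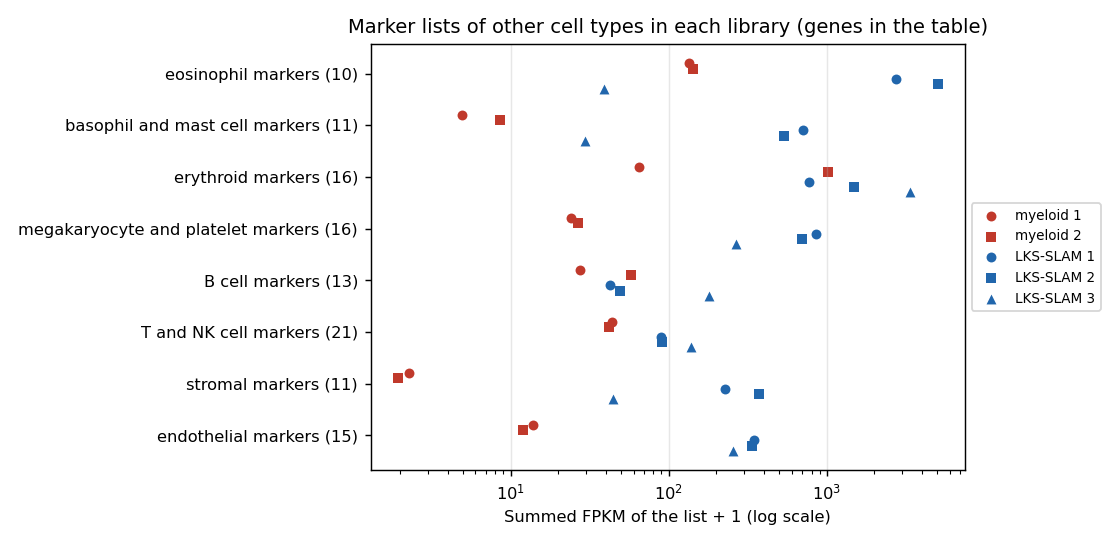
Summed FPKM plus 1 (log scale) of 8 marker lists of other cell types in each of the 5 libraries, red for myeloid and blue for LKS-SLAM. LKS-SLAM replicate 3 (triangles) lies far below replicates 1 and 2 for eosinophil and basophil markers, at 38.1 against 2733 and 5042 FPKM for the former.

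Of 14083 genes tested, 9364 (66.5%) differed between myeloid and LKS-SLAM cells at an adjusted p under 0.05, in a limma model of log2(FPKM + 1) over 29 libraries. Of all genes tested, 17.4% were called higher in myeloid cells (2453 genes) and 49.1% lower (6911 genes). Changes of at least 1 on the log2 scale were called for 1730 genes (12.3%) upward and 5226 (37.1%) downward. The median difference over all genes tested was −0.61 as deposited and −0.07 after quantile normalization, which called 4038 genes (28.7%) higher and 4454 (31.6%) lower. The direction of small differences thus depended on the scaling, although 44 genes (0.312%) were called in opposite directions by the 2 scalings. Both scalings called 16.9% of genes higher and 31.1% lower. Differences below are as deposited and are to be read against −0.61, with counts after quantile normalization beside them where they differ. A total of 3336 genes (23.7%) were higher in both myeloid libraries than in all 3 LKS-SLAM libraries, and 8079 (57.4%) were lower. An exact permutation test of 2 against 3 libraries cannot give a two-sided p below 0.1, so calls rest on the pooled model.

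The genes of the sort were checked first. Itgam, the gene of Cd11b, was at 413 and 405 FPKM in the myeloid libraries and at 12.7, 11.5 and 11.2 FPKM in the LKS-SLAM libraries, a rise of 5.0 ± 0.50 (SE) on the log2 scale. Kit was at 0.106 and 0.281 FPKM against 125, 116 and 133, and Slamf1, the gene of CD150, at 0.0176 and 0.0482 against 16.1, 15.6 and 9.34. Both fell, with log2 differences of −6.72 ± 0.37 and −3.79 ± 0.62, and neither overlapped between the groups. Ly6a, which encodes Sca1, was at 12.4 and 12.9 FPKM against 90.9, 65 and 108 and fell by 2.67 ± 0.75. Of the genes whose products the Gr1 antibody binds, Ly6c2 was at 312 and 287 FPKM against 159, 146 and 54.7, a difference of 1.46 ± 1.23 that did not pass (adjusted p = 0.305). Ly6g has no value here. Cd48, which the SLAM gate selects against, was at 120 and 128 FPKM against 19, 16.5 and 48.5 and rose by 2.27 ± 0.74, a call that ended without myeloid replicate 2 (adjusted p = 0.0529) and with LKS-SLAM replicate 3 alone (adjusted p = 0.276).

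The largest rise was that of Il1b, which encodes the inflammatory cytokine interleukin 1 beta. It was at 2019 and 1853 FPKM in the myeloid libraries and at 4.46, 3.91 and 2.22 FPKM in the LKS-SLAM libraries, a log2 difference of 8.78 ± 0.40 (adjusted p = 1.49e-13). The neutrophil gene Il1f9, another member of the interleukin 1 family, rose by 6.43 ± 0.33, from 1.54, 1.75 and 1.59 FPKM to 210 and 240. Cd300ld, an activating receptor of myeloid cells, was at 263 and 286 FPKM against 0.147, 0.487 and 0.425 (log2 difference 7.68 ± 0.40). The C-type lectin receptor genes Clec4a3, Clec4a1 and Clec4d rose by 7.42 ± 0.75, 6.84 ± 0.68 and 6.80 ± 0.43. They are neighbours in a multigene family, so short reads may be shared between Clec4a3 and Clec4a1. Cxcr2, the neutrophil receptor for CXC chemokines, was at 600 and 626 FPKM against 5.09, 6.03 and 4.35 (log2 difference 6.65 ± 0.25).

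Genes of nonclassical monocytes also stood among the 15 largest rises. Ace, which encodes angiotensin-converting enzyme, was at 200 and 227 FPKM against 0.293, 0.0938 and 0.680, and rose by 7.33 ± 0.34. Treml4, a receptor gene of the same cells, was at 106 and 125 FPKM against 0.0272, 0.102 and 0.759 (6.53 ± 0.50). Pla2g7 encodes a secreted enzyme that breaks down platelet-activating factor, and its level was 491 and 474 FPKM against 3.95, 3.86 and 0.712 (7.13 ± 0.64). Slc11a1, which encodes the phagosomal metal transporter NRAMP1, rose by 7.06 ± 0.66, from 1.04, 1.72 and 0.420 FPKM to 277 and 252. The remaining rises were those of Slfn1 (7.41 ± 1.08), a Schlafen family gene, H2-Q10 (7.27 ± 0.60), a class I-like gene with near-identical relatives, Klra2 (6.92 ± 0.43), a Ly49 family gene with such relatives too, and Cd101 (6.88 ± 0.46). None of the 15 genes overlapped between the groups, which the rule for naming them required.

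**Figure D2:**
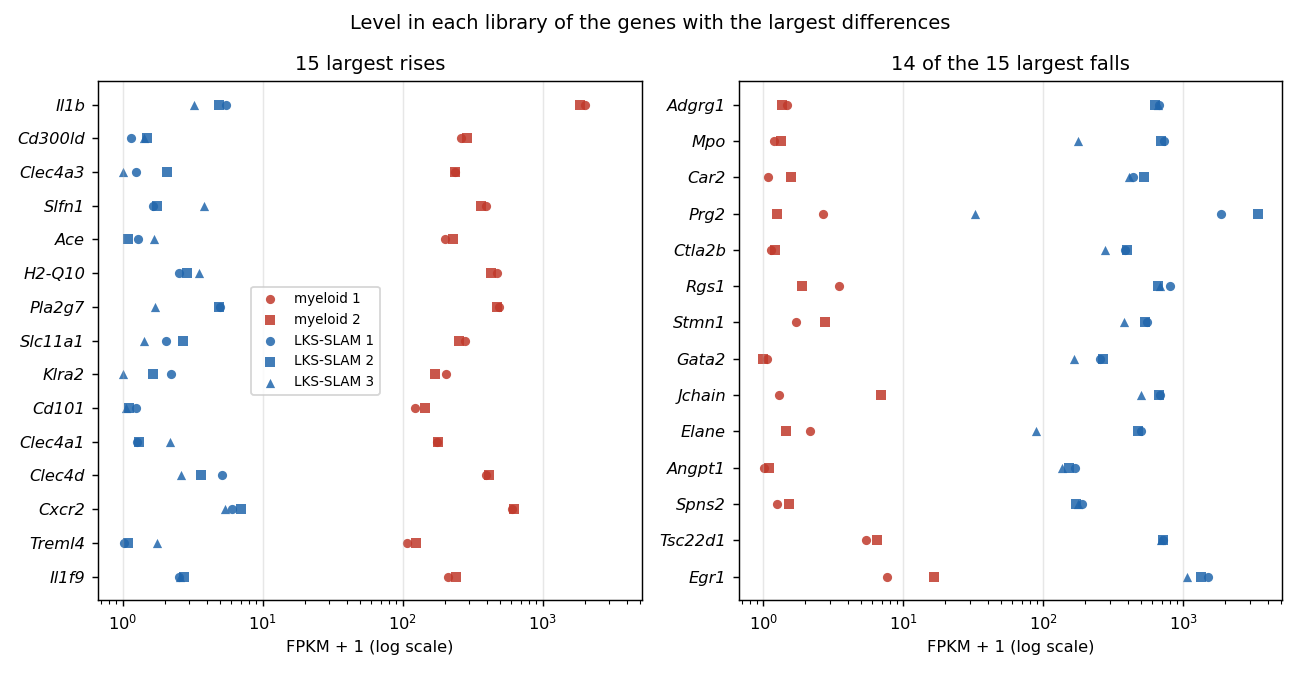
FPKM plus 1 (log scale) in each library of the 15 genes with the largest rise and 14 of those with the largest fall from LKS-SLAM (blue) to myeloid (red) cells. By the rule for naming them no gene overlaps between the groups, and Prg2 in LKS-SLAM replicate 3 (triangle) is at 31.5 FPKM, far below the other LKS-SLAM libraries.

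The largest fall was that of Adgrg1, also known as Gpr56, an adhesion G protein-coupled receptor of stem cells. It was at 0.471 and 0.357 FPKM in the myeloid libraries and at 668, 628 and 662 FPKM in the LKS-SLAM libraries, a log2 difference of −8.85 ± 0.47 (adjusted p = 1.46e-12). Car2, which encodes carbonic anhydrase 2, was at 0.0830 and 0.579 FPKM against 433, 519 and 406 (−8.43 ± 0.45). Gata2, which encodes a zinc finger factor needed by stem cells, was at 0.0577 FPKM and listed at 0 against 253, 267 and 163 (−7.76 ± 0.50). Stmn1, which encodes a protein that destabilises microtubules in dividing cells, was at 0.719 and 1.78 FPKM against 548, 530 and 379 (−7.78 ± 0.34). Angpt1, the gene of the TEK ligand angiopoietin 1, fell by 7.17 ± 0.52. Spns2, which encodes an exporter of sphingosine 1-phosphate, fell by 7.03 ± 0.68.

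Other falls were of genes with known inducible or lineage-restricted expression. Rgs1, which encodes a regulator of chemokine receptor signalling, was at 2.46 and 0.888 FPKM against 799, 660 and 677 (−8.12 ± 0.74). Egr1, an immediate early gene, was at 6.66 and 15.7 FPKM against 1505, 1334 and 1066 (−6.83 ± 0.93). Tsc22d1 fell by 6.90 ± 0.74. Ctla2b, which encodes a cysteine protease inhibitor and has a close paralog, fell by 8.21 ± 0.90. Jchain, which encodes the joining chain of polymeric antibodies, was at 0.300 and 5.93 FPKM against 676, 666 and 498 (−7.66 ± 1.14). The other markers of plasma cells did not reach that level: Mzb1 was at 17.4, 20.4 and 29.6 FPKM and Sdc1 at 6.12, 5.16 and 8.48 in the LKS-SLAM libraries.

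Prg2, which encodes the major basic protein of eosinophil granules, was at 1863, 3398 and 31.5 FPKM in LKS-SLAM replicates 1, 2 and 3 and at 1.67 and 0.253 in the myeloid libraries. Its difference of −8.34 ± 1.62 passed (adjusted p = 1.23e-04). With replicate 3 as the only LKS-SLAM library it was −4.15 with an adjusted p of 0.0604. Prg2 is itself among the eosinophil markers summed above and holds most of the sums in the LKS-SLAM libraries, so those do not stand apart from it. In the myeloid libraries, with sums of 134 and 141 FPKM, other members held most of the sum. The part of eosinophil transcripts in the result was not tested.

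Transcription factors of stem cells formed a list of 27 genes tested, of which 22 fell and none rose, with a median of −3.74. After quantile normalization 21 fell. Myb was at 0.368 and 0.236 FPKM against 136, 136 and 142, a difference of −6.74 ± 0.22. Hlf was at 0.120 and 0.124 FPKM against 52.2, 49.3 and 61.4 (−5.62 ± 0.57), and Erg at 0.368 and 0.156 against 84.5, 82.5 and 97.6 (−6.15 ± 0.52). Mecom was listed at 0 in both myeloid libraries and was at 35.7, 33 and 23.6 FPKM in the LKS-SLAM libraries. Other members changed less or did not pass. Runx1, which is used along the myeloid lineage as well, was at 12.7 and 10.9 FPKM against 24.9, 23.8 and 37.5 and fell by 1.20 ± 0.34. Lyl1 was at 155 and 158 FPKM against 86, 79.2 and 120, a difference of 0.74 ± 0.46 that did not pass (adjusted p = 0.165). Fli1 overlapped between the groups, at 23.3 and 31.5 FPKM against 42.3, 32.4 and 28.4.

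Stem cell receptors and surface genes fell in 20 of 24 cases, with 1 rise and a median of −3.73, and 19 fell after quantile normalization. Procr, the gene of the endothelial protein C receptor, was at 0.101 and 0.123 FPKM against 72.4, 76.5 and 77.8 (−6.11 ± 0.71). Tek, the angiopoietin receptor gene, and Robo4 were listed at 0 in both myeloid libraries and were at 7.37 to 10.1 and 23.6 to 24.8 FPKM in LKS-SLAM cells. Cd34 and Flt3 were highest in LKS-SLAM replicate 3. Cd34 was at 71.1, 61.8 and 222 FPKM in replicates 1, 2 and 3, and Flt3 at 19.9, 23.6 and 122, and the fall of Flt3 did not pass without myeloid replicate 1 (adjusted p = 0.0723). The member that rose was Acvrl1, which encodes a receptor of the TGF-beta superfamily, at 7.56 and 10.0 FPKM against 1.0, 1.02 and 0.383 (2.45 ± 0.30).

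Hox genes, which pattern the body axis and sustain stem cells, fell in 15 of 16 cases and none rose, and after quantile normalization 13 fell. Hoxa9 was listed at 0 in both myeloid libraries and was at 42.2, 43 and 41.9 FPKM in the LKS-SLAM libraries. Hoxa5 was at 0.0524 and 0.119 FPKM against 36.5, 36.3 and 31 (−5.03 ± 0.60). Hoxb4 alone did not pass, at 4.79 and 3.78 FPKM against 10.8, 7.61 and 8.59 (adjusted p = 0.108). The median of the list was −2.93, against −0.61 for all genes.

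Transcription factors of the myeloid lineage rose in 15 of 32 cases and fell in 4, with a median of 1.08. After quantile normalization 16 rose and 3 fell. Spi1, which encodes PU.1, the factor shared by neutrophils and monocytes, was at 675 and 631 FPKM against 76.4, 65.1 and 87.6 (3.09 ± 0.54). It was thus at 65.1 FPKM or more in LKS-SLAM cells as well. Cebpd was at 123 and 133 FPKM against 12, 12.4 and 4.28 (3.73 ± 0.57), whereas Cebpe, which drives secondary granules, overlapped at 11.2 and 14.4 against 14.9, 20.0 and 3.45. The difference of Cebpe was 0.27 with all libraries, −0.41 without LKS-SLAM replicate 3 and 1.63 (adjusted p = 0.0121) with that replicate alone. Mxd1, the gene of an antagonist of MYC, rose by 4.36 ± 0.34, from 16.9, 12.7 and 14.8 to 322 and 323 FPKM. Rara, which encodes a retinoic acid receptor of granulocyte maturation, rose by 4.66 ± 0.38 and Bcl6 by 4.11 ± 0.63. Gfi1, which acts in granulocyte precursors and in stem cells, fell by 3.31 ± 0.51, to 0.647 and 0.750 FPKM from 15.8, 13.3 and 18.7.

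Granule genes are given by the stage at which each kind of granule is filled. Of 10 genes of primary granules, made in promyelocytes, 7 fell and 1 rose, with a median of −3.82, and 7 fell and 2 rose after quantile normalization. Mpo, which encodes myeloperoxidase, was at 0.187 and 0.341 FPKM in the myeloid libraries and at 733, 687 and 176 in the LKS-SLAM libraries (−8.47 ± 0.91). Elane, the gene of neutrophil elastase, was at 1.17 and 0.448 FPKM against 497, 476 and 87.9 (−7.29 ± 0.83). Ctsg was at 0.771 and 0.904 FPKM against 267, 271 and 52.5, and Prtn3 at 4.88 and 3.61 against 649, 586 and 307. All 4 serine protease and peroxidase genes were lowest, among LKS-SLAM libraries, in replicate 3, and none overlapped with the myeloid libraries. Ms4a3, which marks progenitors of granulocytes and monocytes, was listed at 0 in both myeloid libraries and was at 91.4, 85.1 and 6.24 FPKM in LKS-SLAM replicates 1, 2 and 3. Ctsc, which encodes the protease that activates these serine proteases, went the other way, at 107 and 96.2 FPKM against 24.8, 18.5 and 18.6 (2.26 ± 0.28).

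Of 17 genes tested in the secondary granule list, 13 rose and none fell, with a median of 3.48, and 14 rose after quantile normalization. The list is broader than genes of that stage. Cybb and Cyba are counted again with the phagocyte oxidase, and Lyz2 and the phagosomal transporter gene Slc11a1 are members too. Mmp8, the gene of neutrophil collagenase, was at 146 and 155 FPKM against 5.43, 7.11 and 11.3 (4.13 ± 0.39). Lcn2 was at 280 and 313 FPKM against 52.3, 27.3 and 99.1 (2.48 ± 0.85), and Hp, the haptoglobin gene, at 1003 and 995 against 61.8, 45.5 and 16.5 (4.75 ± 0.57). The call of Lcn2 ended without LKS-SLAM replicate 2 (adjusted p = 0.0609), without either myeloid replicate (adjusted p = 0.0518 and 0.0672) and with LKS-SLAM replicate 3 alone (adjusted p = 0.264). The genes of the classical matrix proteins of these granules did not follow. Ltf, which encodes lactoferrin, was at 26.7 and 7.02 FPKM against 30.1, 16.6 and 53.9, Camp at 42.3 and 12 against 112, 36.9 and 80.3, and Ngp at 72.7 and 25.8 against 161, 97.8 and 158. Their differences of −1.06 ± 1.0, −1.57 ± 1.41 and −1.62 ± 1.37 did not pass (adjusted p = 0.359, 0.335 and 0.305). In a fit of the 13 control libraries Camp and Ngp were called lower (adjusted p = 0.0258 and 0.0201). All 3 were higher in myeloid replicate 1 than in replicate 2.

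Genes of tertiary granules and mature neutrophils rose in all 43 cases tested, as deposited and after quantile normalization, with a median of 4.60. With LKS-SLAM replicate 3 alone, 41 rose. Mmp9, the gelatinase gene, was at 674 and 808 FPKM against 5.91, 7.58 and 15 (6.23 ± 0.42). Csf3r, the gene of the G-CSF receptor, was at 2241 and 1944 FPKM against 40.0, 33.2 and 44.1 (5.71 ± 0.47). The most abundant transcripts of the list were S100a9, at 14120 and 16170 FPKM, and S100a8, at 13110 and 14710. LKS-SLAM libraries also held them, with S100a9 at 536, 405 and 532 FPKM and S100a8 at 638, 475 and 615. Retnlg, a neutrophil gene of the resistin family, was at 1365 and 1558 FPKM against 157, 181 and 90.8 (3.40 ± 0.52), so late neutrophil transcripts were measured in the LKS-SLAM libraries. Whether few cells with much of this RNA or many with little carried them cannot be told apart in bulk samples, and the same holds for each level given here.

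Monocyte genes rose in 32 of 35 cases and none fell, with a median of 4.46. Csf1r, which encodes the M-CSF receptor, was at 443 and 418 FPKM against 6.32, 5.0 and 1.87 (6.43 ± 0.66). Ccr2, a receptor of inflammatory monocytes, was at 225 and 207 FPKM against 6.24, 4.60 and 2.25 (5.41 ± 0.65). F13a1 was at 181 and 192 FPKM against 20.4, 14.9 and 3.72 (4.0 ± 0.60), and Cx3cr1 at 96.4 and 101 against 0.982, 1.22 and 0.345 (5.79 ± 0.77). Both neutrophil and monocyte genes were thus at high levels in each myeloid library, and how the cells divided between those types was not measured. Klf4 and Spn did not pass, and Spn, the gene of CD43, was at 103 and 114 FPKM against 146, 145 and 122.

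**Figure D3:**
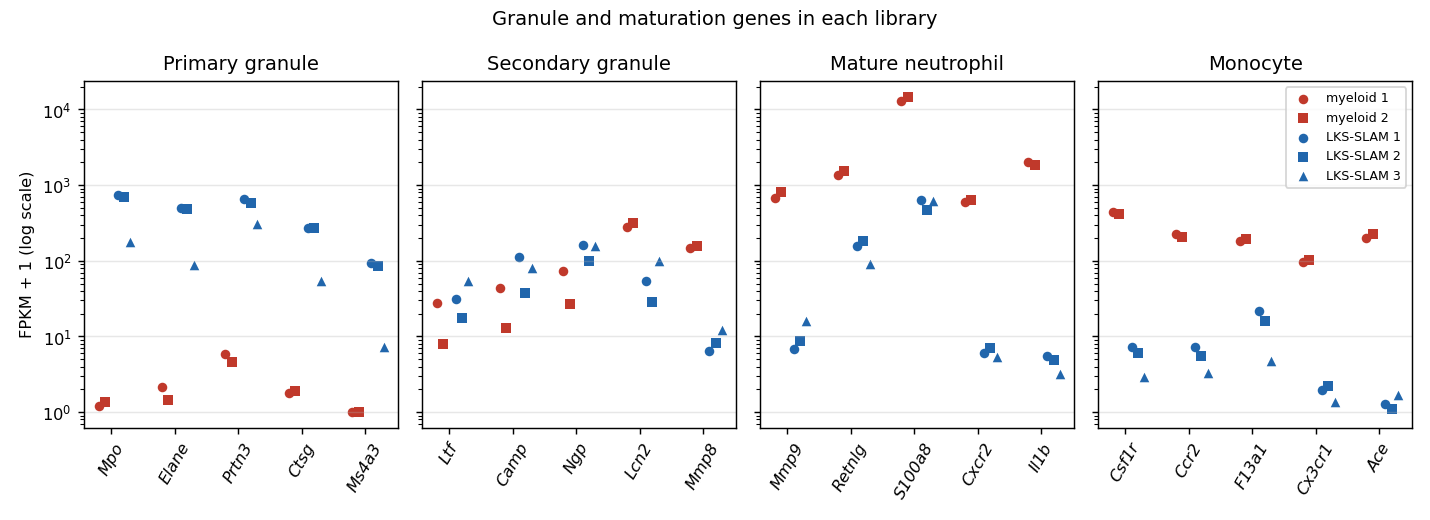
FPKM plus 1 (log scale) of granule and maturation genes in each library, red for myeloid and blue for LKS-SLAM, in 4 panels from primary granules to monocyte genes. Primary granule genes lie lower in myeloid cells, Ltf, Camp and Ngp lie at 7.02 to 161 FPKM in both groups, and mature neutrophil and monocyte genes lie higher in myeloid cells.

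Promoters of genes from these classes are shown to set genes that rose (Itgam, Fcgr1 and Mmp8) beside genes that fell (Ctsg and Mcm6). The windows are the 250 bases before the RefSeq transcription start (build GRCm38.p6), written 5′ to 3′ on the strand of the gene. Capitals mark matches on either strand to the motifs named below for that gene, and other motifs were not marked. Every window shown holds such a match, so these examples do not show how often one occurs. Only these 250 bases were searched, and none after the start. The motifs were GAGGAAG, a core sequence bound by PU.1, TTNNGCAA for C/EBP factors, and TTTGGCGC or TTTCCCGC for E2F factors. Itgam, at chr7:128062390-128062639 on the plus strand, and Fcgr1, at chr3:96293970-96294219 on the minus strand, each hold 1 PU.1 core. Mmp8, at chr9:7558179-7558428 on the plus strand, holds 1 PU.1 core and, nearest the start, 1 C/EBP match. Ctsg, a primary granule gene at chr14:56102575-56102824 on the minus strand, holds 1 PU.1 core although it fell. Mcm6, a replication gene at chr1:128359706-128359955 on the minus strand, holds 2 E2F matches.
Itgam: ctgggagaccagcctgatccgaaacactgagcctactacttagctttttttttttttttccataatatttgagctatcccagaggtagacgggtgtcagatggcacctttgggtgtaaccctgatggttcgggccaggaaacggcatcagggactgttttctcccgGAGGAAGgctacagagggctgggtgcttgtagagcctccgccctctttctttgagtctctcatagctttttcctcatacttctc
Fcgr1: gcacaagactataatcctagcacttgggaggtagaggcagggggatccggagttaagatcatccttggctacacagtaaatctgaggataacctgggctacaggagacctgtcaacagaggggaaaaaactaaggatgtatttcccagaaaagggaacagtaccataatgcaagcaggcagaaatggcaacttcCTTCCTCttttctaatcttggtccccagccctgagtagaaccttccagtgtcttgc
Mmp8: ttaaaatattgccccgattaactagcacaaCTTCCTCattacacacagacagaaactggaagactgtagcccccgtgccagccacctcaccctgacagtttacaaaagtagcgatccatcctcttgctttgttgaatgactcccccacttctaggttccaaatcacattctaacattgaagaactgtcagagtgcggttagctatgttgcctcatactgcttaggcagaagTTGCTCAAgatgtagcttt
Ctsg: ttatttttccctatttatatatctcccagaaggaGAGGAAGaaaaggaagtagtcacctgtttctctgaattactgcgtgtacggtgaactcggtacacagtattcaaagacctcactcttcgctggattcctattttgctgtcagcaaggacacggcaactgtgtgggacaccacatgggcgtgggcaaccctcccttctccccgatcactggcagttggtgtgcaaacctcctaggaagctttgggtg
Mcm6: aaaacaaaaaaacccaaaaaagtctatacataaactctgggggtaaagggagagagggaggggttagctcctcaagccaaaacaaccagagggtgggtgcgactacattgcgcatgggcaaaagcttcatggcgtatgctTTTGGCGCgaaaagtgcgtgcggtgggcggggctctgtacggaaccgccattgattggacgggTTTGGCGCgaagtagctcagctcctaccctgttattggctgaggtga
The PU.1 core in Itgam begins 84 bases before the start and that in Fcgr1 56 bases before it, and the C/EBP match in Mmp8 begins 19 bases before it. RefSeq windows matched 10673 of the 14083 genes tested. The PU.1 core occurred in 5 of the 15 largest rises (33.3%), in 2 of the 8 named falls with a window (25%) and in 12% of all 27025 genes with a window. By class it occurred in 5 of 7 primary granule genes (71.4%), 5 of 16 secondary granule genes (31.2%), 8 of 37 mature neutrophil genes (21.6%), 6 of 28 monocyte genes (21.4%) and 3 of 35 cell cycle genes (8.57%). C/EBP matches occurred in 10.8% of all genes, in 2 of the 15 largest rises (13.3%) and in 1 of the 8 falls (12.5%). By class they occurred in 0 of 7 primary granule genes, 5 of 16 secondary granule genes (31.2%), 9 of 37 mature neutrophil genes (24.3%), 2 of 28 monocyte genes (7.14%) and 2 of 35 cell cycle genes (5.71%). E2F matches occurred in 7 of 35 cell cycle genes (20%), in 1.51% of all genes and in none of the other sets. The 27025 genes include ones that were not tested, and shares among tested genes alone were not computed. A match is only a run of letters in these windows.

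Receptors through which phagocytes sense microbes rose in 25 of 28 cases and fell in 1, with a median of 3.24, and 26 rose and none fell after quantile normalization. The endosomal receptor gene Tlr8 was at 47 and 45.8 FPKM against 0.306, 0.223 and 0.368 (5.19 ± 0.32), and Tlr13 at 123 and 121 against 0.699, 1.29 and 1.57 (5.83 ± 0.37). Clec7a, which encodes the beta-glucan receptor Dectin-1, was at 588 and 513 FPKM against 6.34, 7.65 and 4.08 (6.33 ± 0.54). The adaptor gene Myd88 was at 196 and 202 FPKM against 28.6, 31.9 and 19.1 (2.90 ± 0.24). Tlr4 rose less, by 1.46 ± 0.44, from 7.78, 6.46 and 5.58 to 17.7 and 22.2 FPKM, a call that ended without myeloid replicate 2 (adjusted p = 0.0538). Tlr3 did not pass as deposited and was called higher after quantile normalization.

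Genes of a list of receptors for antibodies and complement, with Treml2 of neither kind among them, rose in 17 of 19 cases. There was 1 fall, and the median was 5.0. Fcgr3 was at 448 and 551 FPKM against 19.7, 23.3 and 4.04 (5.19 ± 0.92), Fcgr4 at 125 and 123 against 0.832, 0.855 and 1.48 (5.94 ± 0.65), and C5ar1, a receptor for the complement fragment C5a, at 153 and 154 against 0.957, 0.921 and 1.37 (6.22 ± 0.48). Tyrobp, which encodes the signalling adaptor of many of these receptors, was at 3942 and 4087 FPKM against 93.3, 109 and 70.1 (5.48 ± 0.95). The member that fell was Treml2, at 25.2 and 25.8 FPKM against 88.7, 81.6 and 67.4 (−1.59 ± 0.49), which did not pass with LKS-SLAM replicate 3 alone (adjusted p = 0.107).

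Cytokine receptor genes changed in both directions, with 17 of 26 higher and 5 lower. Those for myeloid growth factors rose: Csf2rb, the common beta chain, was at 134 and 127 FPKM against 8.96, 11.5 and 11.7 (3.50 ± 0.40), and Csf2ra rose by 3.35 ± 0.44. Epor, the erythropoietin receptor gene, fell by 4.36 ± 0.64 to 0.0270 FPKM and a listed 0, from 18.2, 23.8 and 18. Within the interleukin 1 system the receptors moved apart. Il1r1, the signalling receptor, was at 0.0772 and 0.0791 FPKM against 5.65, 5.48 and 13 (−2.97 ± 0.37). Il1r2, which encodes a decoy receptor, was at 188 and 173 FPKM against 4.79, 2.97 and 6.44 (5.03 ± 0.33), and Il1rn, the gene of the receptor antagonist, rose by 5.54 ± 0.56 to 71.5 and 64.5 FPKM. Of 19 genes of inflammasomes and interleukin 1, 14 rose and 1 fell, and 16 rose and 1 fell after quantile normalization. The sensor gene Nlrp3 was at 115 and 117 FPKM against 2.50, 2.16 and 1.03 (5.38 ± 0.28), whereas Pycard, the adaptor, was at 23.4 and 21.3 against 15, 15.3 and 14.6 and did not pass as deposited (adjusted p = 0.0566) but did after quantile normalization.

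Receptors for chemotaxis and adhesion rose in 19 of 27 cases and fell in 4, with a median of 2.86, and 20 rose and 3 fell after quantile normalization. Ccr1 was at 238 and 219 FPKM against 3.64, 3.72 and 1.55 (5.91 ± 0.36). Cxcr4, which retains cells in marrow through its ligand CXCL12, was higher in blood cells, at 505 and 445 FPKM against 94.1, 112 and 69.5 (2.38 ± 0.42). S1pr1, a receptor for exit into blood, was at 0.248 and 1.03 FPKM against 28, 19.5 and 24.9 (−3.97 ± 0.64). Among integrins, the leukocyte chain Itgal was at 488 and 480 FPKM against 10.5, 11.2 and 18.9 (5.11 ± 0.46), and Itga6, a laminin receptor chain, was at 0.836 and 0.645 against 38.3, 31 and 35.5 (−4.37 ± 0.47). Itgb1 overlapped between the groups, at 69.7 and 80.3 against 73.9, 61.8 and 61.3.

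The phagocyte oxidase, which makes superoxide in phagosomes, had 7 of 8 genes higher and 1 lower as deposited and 6 higher and none lower after quantile normalization. Cybb, its catalytic subunit, was at 298 and 276 FPKM against 13.9, 11.6 and 8.67 (4.56 ± 0.49). The rise of Rac1 (0.68 ± 0.18) and the fall of Hvcn1 (−1.47 ± 0.40) did not pass after quantile normalization. Genes of the actin cytoskeleton rose in 26 of 29 cases and none fell, with a median of 1.55, and 25 rose after quantile normalization. Tmsb4x, which encodes an actin monomer binder, was at 8715 and 9725 FPKM against 2098, 2069 and 1409 (2.33 ± 0.32), and Lsp1 at 1091 and 1155 against 62.9, 70.2 and 125 (3.76 ± 0.55). Cfl1 was at 728 and 797 FPKM against 676, 635 and 681 and passed only after quantile normalization (adjusted p = 0.499 as deposited).

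Lysosomal genes rose in 24 of 30 cases and fell in 4, and 23 rose and 4 fell after quantile normalization. Psap, which encodes the precursor of saposins, was at 2198 and 2247 FPKM against 238, 235 and 256 (3.19 ± 0.27), and Ctss at 824 and 824 against 16.8, 16.3 and 57.5 (4.98 ± 0.51). Those that fell included Glb1, the beta-galactosidase gene, at 7.94 and 6.91 FPKM against 28.9, 26.3 and 27 (−1.76 ± 0.16). Of 15 Src and Syk family kinases and partners 8 rose and 4 fell as deposited, 7 and 1 after quantile normalization, 5 rose with LKS-SLAM replicate 3 alone and 2 fell without it. Fgr was at 380 and 337 FPKM against 4.94, 3.04 and 2.68 (6.33 ± 0.38), and Src itself at 0.108 and 0.0870 against 5.55, 4.19 and 4.47 (−2.38 ± 0.33).

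Genes of cell division and DNA replication fell in 41 of 42 cases, with a median of −3.31, and in 38 after quantile normalization. Mcm6, a subunit of the replicative helicase, was at 3.27 and 3.30 FPKM against 128, 126 and 142 (−4.95 ± 0.35). Top2a was at 0.131 and 0.413 FPKM against 64.5, 61.3 and 24.4 (−5.22 ± 0.61), Rrm2 at 0.155 and 0.202 against 55.6, 68.7 and 42.5 (−5.56 ± 0.73), and Mki67, the Ki-67 gene, at 5.49 and 4.28 against 40.3, 43.7 and 32.1 (−2.75 ± 0.57). Top2a, Mki67 and Cdk1 were lower in LKS-SLAM replicate 3 than in replicates 1 and 2, with Cdk1 at 25, 30.5 and 10.2 FPKM, and stayed above both myeloid libraries. The member that rose was Kif23, a kinesin gene of cytokinesis, at 49.4 and 53.1 FPKM against 22.5, 23.6 and 13.7 (1.35 ± 0.29).

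Regulators of the G1 phase changed in both directions. Ccnd1 was at 0.585 and 0.721 FPKM against 13.8, 10.7 and 16.4 (−3.13 ± 0.28) and Cdk6 at 1.12 and 1.94 against 29.5, 25.9 and 26.3 (−3.50 ± 0.34). Ccnd3 was at 161 and 163 against 103, 102 and 94.4, a difference of 0.69 ± 0.29 that passed as deposited (adjusted p = 0.0409) and neither after quantile normalization nor without any 1 of the 5 libraries (adjusted p = 0.0625 to 0.13). Of 19 genes in the list 5 rose and 10 fell, and 3 rose with LKS-SLAM replicate 3 alone. The 5 and 10 stand beside 17.4% higher and 49.1% lower among all genes. After quantile normalization 5 rose and 10 fell as well, beside 28.7% and 31.6% of all genes. Among inhibitors, Cdkn1b, which encodes p27, rose by 1.80 ± 0.28 to 106 and 124 FPKM. Cdkn1c, which encodes p57 and holds stem cells out of cycle, fell by 3.93 ± 0.78 from 22.2, 28.1 and 10.8 to 0.439 and 0.188. Myc was at 0.419 and 0.928 FPKM against 109, 112 and 123 (−6.13 ± 0.28).

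Genes for making ribosomes were lower in myeloid cells. Of 36 ribosome biogenesis genes 34 fell and none rose, with a median of −2.11, and 28 fell after quantile normalization. Npm1, the nucleophosmin gene, was at 90.1 and 105 FPKM against 715, 746 and 620 (−2.82 ± 0.42), and Nop58 at 5.32 and 7.70 against 105, 114 and 92.1 (−3.82 ± 0.37). Of 83 cytosolic ribosomal protein genes 79 fell and 1 rose, with a median of −1.90, and 76 fell after quantile normalization. Together they held 8.3% and 8.66% of summed FPKM in the myeloid libraries and 26%, 27.1% and 28.6% in the LKS-SLAM libraries. Rplp1 was at 990 and 1058 FPKM against 5478, 6443 and 6062 (−2.55 ± 0.41). The gene that rose was Rpl3l, at 4.84 and 4.17 FPKM against a listed 0, 0.233 and 0.865.

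Of 76 genes of oxidative phosphorylation subunits 45 fell and none rose as deposited, beside 49.1% lower among all genes, with a median of −0.85 beside −0.61. After quantile normalization 64 fell, beside 31.6% of all genes, with a median of −0.86 beside −0.07. With LKS-SLAM replicate 3 alone 26 fell. Sugar metabolism genes changed in both directions, with 7 of 23 glycolysis genes higher and 8 lower and a median of 0.10. Among all genes 17.4% were higher and 49.1% lower. Hk3, a hexokinase of myeloid cells, rose by 1.58 ± 0.40 to 141 and 126 FPKM, while Hk1 fell by 1.72 ± 0.23 to 22.9 and 22.4 from 88.2, 79.1 and 64.6. Pfkm, a muscle-type phosphofructokinase gene, was at 1.46 and 1.41 FPKM against 36.6, 38.9 and 34.1 (−3.95 ± 0.32). Slc2a6, which encodes a hexose transporter, was at 157 and 147 FPKM against 1.47, 1.87 and 1.07 (5.97 ± 0.39), and Slc16a3, which encodes the lactate exporter MCT4, at 211 and 263 against 6.16, 5.44 and 6.16 (5.10 ± 0.34). Glycogen phosphorylase genes did so too, with liver-type Pygl at 363 and 387 FPKM against 40.8, 45.4 and 34.8 (3.19 ± 0.38) and muscle-type Pygm at 2.14 and 1.93 against 22.2, 21.7 and 17.5 (−2.82 ± 0.70). In the citrate cycle list 13 of 21 genes fell (12 after quantile normalization), beside 49.1% and 31.6% lower among all genes. Its member Idh1 rose, by 2.23 ± 0.28, to 54.8 and 74.8 FPKM, while mitochondrial Idh2 fell by 3.08 ± 0.24.

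Among chromatin genes, Dnmt1, which copies DNA methylation at replication, was at 8.10 and 7.29 FPKM against 71.6, 64.5 and 55.4 (−2.89 ± 0.31), and its partner Uhrf1 at 0.178 and 0.249 against 48.8, 50.5 and 37.1 (−5.25 ± 0.52). Of 12 genes of DNA methylation and its removal 9 fell and 2 rose, beside 49.1% lower and 17.4% higher among all genes. After quantile normalization 5 fell and 2 rose, beside 31.6% and 28.7%. Without LKS-SLAM replicate 3, and with it alone, 1 rose. The dioxygenase genes differed: Tet1 was at a listed 0 and 0.0520 FPKM against 5.24, 5.74 and 7.43 (−2.79 ± 0.33), and Tet2 at 13.5 and 10.3 against 5.19, 5.14 and 3.20 (1.24 ± 0.27). Hmgn1, a nucleosome-binding protein gene, was at 1.63 and 3.17 FPKM against 157, 151 and 106 (−5.37 ± 0.28). Lmnb2, a lamin gene, fell by 3.25 ± 0.25, and Lbr, which shapes the lobed neutrophil nucleus, rose by 0.96 ± 0.15, from 63.7, 61 and 70.5 to 120 and 134 FPKM. In the list for the nuclear envelope and chromatin of the lobulated nucleus, 1 of 19 genes rose and 12 fell, with a median of −0.82. Among all genes 17.4% rose and 49.1% fell. After quantile normalization 1 rose and 10 fell in that list.

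Immediate early genes, which are switched on within minutes of stimulation, changed in part. Of 22 tested, 12 fell and 1 rose, with a median of −1.67, and 10 fell after quantile normalization, beside 49.1% and 31.6% lower among all genes. Fosb was at 19.8 and 27 FPKM against 632, 673 and 566 (−4.69 ± 0.93), Jun at 39.9 and 66.4 against 1508, 1799 and 1164 (−4.81 ± 0.89), and Nr4a2 at 0.155 and 0.410 against 84.9, 62.4 and 104 (−6.02 ± 0.81). Fos was high in every library, at 777 and 916 FPKM against 2059, 2443 and 2256, and its difference of −1.41 ± 1.15 did not pass (adjusted p = 0.285). Dusp1 overlapped, at 1086 and 894 FPKM against 708, 1145 and 611. The member that rose was Ier5 (1.83 ± 0.46).

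Interferon-stimulated genes rose in 20 of 32 cases and fell in 1, with a median of 1.53. After quantile normalization 27 rose, and with LKS-SLAM replicate 3 alone 12 rose. Ifi27l2a was at 429 and 502 FPKM against 2.99, 1.36 and 16.3 (6.41 ± 0.63), and Ifit3 at 18 and 19.6 against 0.253, 0.411 and 0.754 (3.76 ± 0.33). Ifitm3, at 1148 and 1189 FPKM against 512, 439 and 457, did not pass as deposited (adjusted p = 0.163) but did after quantile normalization. Class II antigen presentation genes were measured in all 5 libraries. H2-Aa was at 288 and 299 FPKM against 101, 77.3 and 203, and did not pass. Of 9 genes tested 1 rose, the regulator Ciita, and 2 fell, and without LKS-SLAM replicate 3 or after quantile normalization 2 rose and 1 fell. The rise of Ciita did not pass with LKS-SLAM replicate 3 alone (adjusted p = 0.105).

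Survival genes of the Bcl2 family rose in 9 of 17 cases and fell in 3, beside 17.4% and 49.1% of all genes. Mcl1, on which neutrophils depend, was at 765 and 808 FPKM against 338, 350 and 300 (1.26 ± 0.43), and Bcl2 at 4.29 and 5.39 against 26.8, 21.7 and 18 (−1.98 ± 0.43). The call of Mcl1 ended without either myeloid replicate (adjusted p = 0.0512 and 0.0659). Bcl2a1b, which has near-identical copies that short reads may not separate, was at 15.7 and 19 FPKM against a listed 0, 0.487 and 1.42. Of 14 enzymes of eicosanoid synthesis 5 were higher and 8 lower, beside 17.4% and 49.1% of all genes. After quantile normalization 5 were higher and 6 lower, and with LKS-SLAM replicate 3 alone 5 were lower. Alox5, which starts leukotriene synthesis, was at 101 and 96.8 FPKM against 13.3, 8.85 and 0.673 (4.02 ± 0.59). Ptgs1, the cyclooxygenase 1 gene, was at 7.34 and 5.42 FPKM against 51.8, 50.7 and 23.9 (−2.48 ± 0.41).

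**Figure D4:**
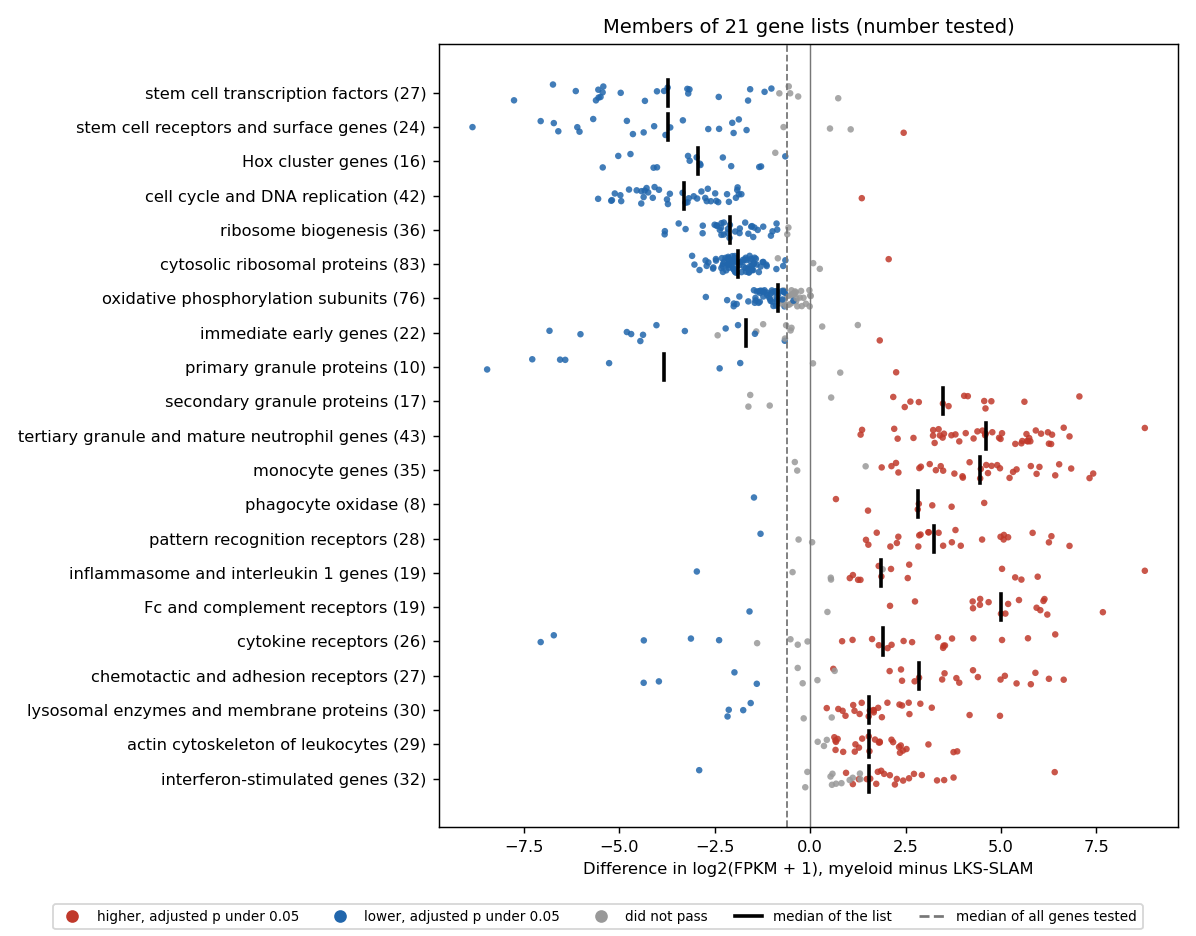
Difference in log2(FPKM + 1), myeloid minus LKS-SLAM, of each tested member of 21 gene lists, with red and blue points for calls, grey for genes that did not pass, black bars for list medians and a dashed line at the median of all genes tested, −0.61. Medians run from −3.82 for primary granule genes to 5.0 for Fc and complement receptors.

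Myeloid cells were also compared with control B cells and with the mean of control CD4+ and CD8+ T cells. These comparisons share the myeloid libraries with the one above and are given side by side with it. Of all genes tested, 53% were called against B cells (17.2% higher and 35.8% lower) and 57.9% against T cells (18% higher and 39.9% lower). Of the 14 falls named for their size, 3 were called lower than in B cells and 5 lower than in T cells, while 11 and 9 were called in neither direction, which does not show that the levels were the same. Kit differed from B and T cells by 0.18 and 0.03, and Gata2 by 0.02 and 0.01, against −6.72 and −7.76 from LKS-SLAM cells. No Hox gene of the 16 tested was called against either lymphocyte, whereas 15 fell from LKS-SLAM cells. Most Hox genes were near the floor in myeloid cells and lymphocytes alike, so a call between these was hardly possible. Hoxb6, listed at 0 in both myeloid libraries, differed by −0.036 from B cells and −0.035 from T cells. Stmn1 differed by −2.84 from B cells and by −3.70 from T cells, both called.

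Of the 15 genes with the largest rises, 15 were called higher than in B cells and 14 higher than in T cells. The exception was Slfn1, whose difference from T cells was 0.98 (adjusted p = 0.431). The 15 genes were chosen for high values in the same 2 myeloid libraries, which favours such calls, so these counts are no separate support. Mature neutrophil genes were called higher in 42 of 43 cases against B cells and against T cells. Cell cycle genes, lower than in LKS-SLAM cells in 41 of 42 cases, were lower than in B cells in 15 and than in T cells in 21. Among all genes 35.8% were lower than in B cells and 39.9% than in T cells, so the B cell count was near the share over all genes. Ribosomal protein genes were lower in 74 of 83 cases against B cells and in 78 against T cells, and ribosome biogenesis genes in 33 of 36 against each. Myeloid transcription factors were called higher in 24 of 32 cases against each lymphocyte and in 15 against LKS-SLAM cells. Cebpe, not called against LKS-SLAM cells, was higher than in B cells by 3.78 and than in T cells by 3.76. A difference between these comparisons was not tested.

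The same contrast was read in the 5 rEC libraries, which share no library with it. There 68.4% of genes were called, 18.6% higher in myeloid cells and 49.8% lower. Of the 2453 genes that rose in control cells, 2433 (99.2%) had the same sign in rEC cells, 2225 (90.7%) were called in the same direction and none in the opposite one. Of the 6911 that fell, 6859 (99.2%) had the same sign and 6258 (90.6%) were called, with 1 called in the opposite direction. Among the 29 genes named for size, 28 were called in the same direction, the exception being Prg2 (−3.03, adjusted p = 0.103). Mpo was at 26.9 ± 30.5 FPKM (SD, n = 3) in rEC LKS-SLAM cells and at 532 ± 309 in control ones, and its log2 difference was −3.19 in rEC and −8.47 in control cells. The difference of 5.28 ± 1.29 between these contrasts did not pass (adjusted p = 0.11).

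**Figure D5:**
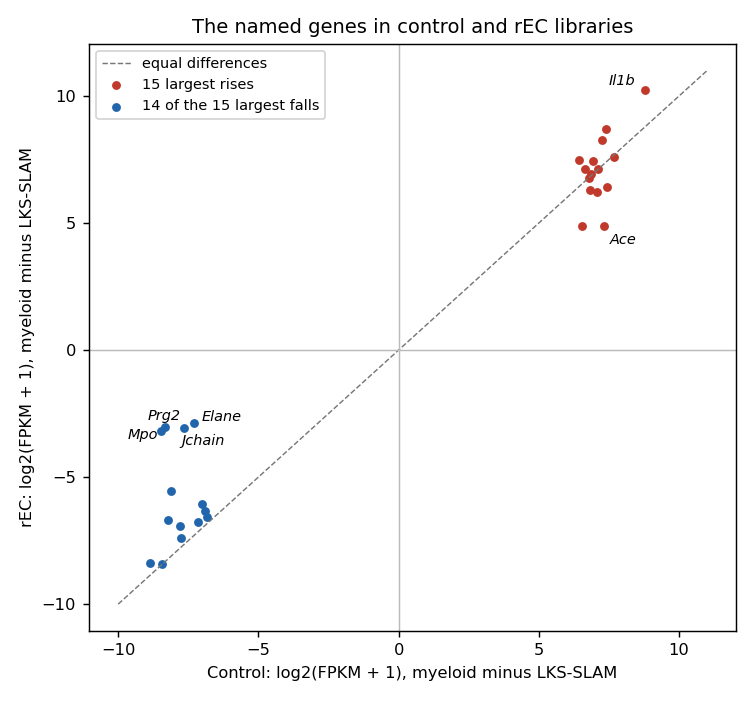
Log2 difference, myeloid minus LKS-SLAM, of the 29 named genes in control libraries (horizontal) and rEC libraries (vertical), with a dashed line of equal differences. All 29 have the same sign on both axes, and Mpo, Prg2, Jchain and Elane lie farthest from the line.

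A test of the difference between the 2 contrasts called 42 genes (0.298%), 27 (0.192%) with a larger value in rEC and 15 (0.107%) with a smaller one. The members named here were chosen from the lists after their values were seen. Neutrophil genes were among the former. Retnlg differed by 7.51 ± 0.74 (adjusted p = 1.55e-05), with 143 FPKM on average in control and 0.737 in rEC LKS-SLAM cells and 1462 and 3475 in myeloid cells. Mmp9 (3.25), Mmp8 (3.48), Lcn2 (5.62), Hp (4.24) and Fpr2 (2.72) also had larger differences in rEC cells. Ace, of the monocyte list, was among the genes with a smaller value in rEC and differed by −2.45 ± 0.49 (adjusted p = 0.0218), with myeloid means of 213 FPKM in control and 32.3 in rEC cells, and Cd300e by −3.36 and Eno3 by −1.97. Other members of that list had larger rises in rEC cells, such as F13a1 (7.38 against 4.0) and Ccr2 (8.30 against 5.41), with differences that did not pass (adjusted p = 0.123 and 0.368). The rEC LKS-SLAM libraries varied more than the control ones, with S100a8 at 60.9 ± 100.2 FPKM (SD, n = 3) against 576 ± 88.3, so the pooled spread may be too small for them.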

How the data were processed

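RNA from sorted cells was sequenced as non-stranded, poly-A-selected libraries, per the labels' protocols. The authors deposited 1 table of FPKM values per gene and library. Their processing used bcl2fastq 2.17, FastQC 0.11.5, Trimmomatic 0.36, TopHat2 2.1.0, Cufflinks 2.2.1 and build mm10, per the submitters' processing notes. Their settings are not given in the sources used here. Without counts, no depth in reads or counting interval can be given, and reads of near-identical or overlapping genes cannot be separated.

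Groups were taken from titles. Of 23060 genes, 14083 had at least 1 FPKM in at least 2 of 29 grouped libraries. On log2(FPKM + 1), which understates changes of low genes, limma 3.58.1 (R 4.3.3) was fitted with 1 mean per group for 11 groups, 18 residual degrees of freedom and a trended prior. The same spread was thus assumed for all groups. Adjusted p-values are Benjamini-Hochberg values over all genes tested, and genes under 0.05 were called. The steps were tested on simulated data. Genes named were the 15 largest rises and 15 largest falls among called genes whose libraries did not overlap and whose higher group mean was at least 5 FPKM, members of each list chosen for their role, and the sort markers. Of the falls 14 are reported, and some genes are not reported here. From the rises, 5 unnamed gene models were left out. Members and lists were chosen with earlier results of these data known. The alternatives tried were another pseudocount, other filters, quantile and TPM scaling, library weights, fewer libraries, a replicate block and leaving out each library. Promoter windows came from RefSeq (GRCm38.p6).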

Additional observations from a re-analysis of the deposited data

Results flagged for a closer look

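The change from LKS-SLAM to myeloid cells differed between rEC and control cells for 9 genes named in the report, by a limma test of that difference with adjustment over all genes. In each case the value is the rEC difference minus the control difference on the log2 scale. It was larger in rEC cells for Retnlg (7.51, adjusted p = 1.55e-05), Lcn2 (5.62, adjusted p = 0.0408), Hp (4.24, adjusted p = 0.0161), Mmp8 (3.48, adjusted p = 0.00328), Mmp9 (3.25, adjusted p = 0.0159) and Fpr2 (2.72, adjusted p = 0.000124). For these neutrophil genes the mean in LKS-SLAM cells was lower in the rEC than in the control libraries, as with Hp at 1.75 against 41.3 FPKM and Mmp8 at 0.531 against 7.95. It was smaller in rEC cells for Cd300e (−3.36, adjusted p = 0.0161), Ace (−2.45, adjusted p = 0.0218) and Eno3 (−1.97, adjusted p = 0.0161). For these the mean in myeloid cells was lower in the rEC libraries, as with Cd300e at 4.44 against 39.8 FPKM and Eno3 at 13.2 against 45.9. How much the count of such genes moved with the libraries used is given with the dependence on processing.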

How the results depend on the processing

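The count of genes called between myeloid and LKS-SLAM control cells stayed within 1.5 times of 9364 in each alternative run, from 7200 with LKS-SLAM replicate 3 alone to 11445 with library weights, and from 7989 to 9310 when 1 library was left out. Against B cells it was 6743 to 10314 (6003 to 6969 with 1 library left out), against T cells 7132 to 10723 (6517 to 7884), and between rEC cells 8393 to 11336 (8261 to 9981). The count of differences between origins did not hold: the 42 genes became 16 with a pseudocount of 0.1, 104 with no filter, 19 with a filter of 5 FPKM, 2791 with library weights, 464 without LKS-SLAM rEC replicate 2 and B cell rEC replicate 1, and 13 to 317 with 1 library left out. The cause was not tested. Of 173 genes named with a test 154 passed, and for 18 of the 173 a call ended or a direction turned in at least 1 of 17 alternatives. Directions turned for Cebpe (−0.37 with library weights, −0.41 to 0.71 with 1 library left out), Dusp1 (−0.09 with the replicate block), Tlr3 (0.50 after quantile normalization), and, with LKS-SLAM replicate 3 alone, Epx (0.05) and Xist (−2.27). Fits of fewer or weighted libraries called genes that the pooled fit did not, among them Ly6c2 (adjusted p = 0.00378 with the 13 control libraries), Hoxb4 (0.000702), H2-Aa (0.0113) and Lyl1 (0.0417), and Fos (0.00059 with the 5 compared libraries). Whether the replicate numbers pair the samples could not be decided. Deviations of same-numbered libraries correlated at 0.091 and −0.024, but with 2 myeloid libraries the myeloid deviations mirror each other. With the replicate block the counts were 10645, and 8881 and 9655 against B and T cells, beside 10644, 8905 and 9611 without it in the same 13 libraries. The myeloid group has 2 libraries, and the files hold no counts.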
